A study of Caenorhabditis elegans with 12 samples.

Results

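Galectins are small proteins that bind galactose-containing sugar chains on glycoproteins and glycolipids. They leave the cell without a signal peptide and can bridge glycans on cell surfaces and in the extracellular matrix. In C. elegans the lec genes encode a tandem-repeat type, with a pair of carbohydrate recognition domains in 1 polypeptide, and a shorter type with a single domain. Worm galectins have been linked to resistance to oxidants and to bacterial toxins that bind intestinal glycolipids. Mutations in the glycan synthesis genes change which ligands they find. The 10 galectin genes lec-1, lec-2, lec-3, lec-4, lec-5, lec-6, lec-8, lec-9, lec-10 and lec-11 were taken by name from an expression matrix of 12595 genes, and 10 of 10 were present. The list was set by gene name and not by expression, although it was drawn up with earlier results from these data known. The matrix holds 12 genes named lec-, and the other two (lec-7 and lec-12) are described only where they widen the picture.

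RNA was sequenced from whole day 1 adults grown at 25°C, in 4 groups of 3 libraries labelled as biological replicates. The groups were wild type (WT, strain N2) on bacteria carrying the empty vector L4440, WT on bacteria expressing double-stranded RNA against skn-1, and glp-1(bn18ts), called glp-1(ts), on each of these foods. The glp-1 gene encodes the Notch receptor that keeps germline stem cells (GSCs) proliferating, and at 25°C the glp-1(ts) worms had no eggs and little germline, whereas WT worms kept both because no drug was used to block reproduction. SKN-1 is the worm counterpart of the stress and detoxification regulators called Nrf, and feeding RNAi lowers its activity only in part. It was begun at the egg stage according to the sample labels and at the first larval stage according to the series description. Values are on the log2 scale of CPM, a gene's read count scaled to a fixed library total.

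The germline and target genes were checked first. On vector the mean of 15 germline genes was 7.13 ± 0.14 log2 CPM in WT and 4.15 ± 0.61 log2 CPM in glp-1(ts) (SD, n = 3), where replicate 3 was the highest at 4.84, and glp-1 mRNA itself was 2.12 log2 units lower. The targeted gene skn-1 had 6.32 ± 0.21 log2 CPM in WT on vector and 4.65 ± 0.34 log2 CPM on skn-1 RNAi (SD, n = 3), a fall of 1.67 (limma, adjusted p = 0.00782). In glp-1(ts) it ranged from 6.07 to 6.23 log2 CPM on vector and from 5.73 to 6.60 log2 CPM in the libraries labelled skn-1 RNAi, a difference of -0.02 (adjusted p = 0.991), so the label of those 3 libraries was not borne out by the skn-1 mRNA level. The fall was 1.66 smaller in glp-1(ts) than in WT (unadjusted p = 8.04e-05, adjusted p = 0.732 by limma). All comparisons that use them refer to the libraries so labelled. Whole worms differ in tissue makeup as well as in expression, so fewer cells of a type and less RNA per cell cannot be told apart. Depth could not be computed from normalised values, so no counting interval is given.

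The 10 genes are spread over chromosomes II, III, IV, V and X of genome build WBcel235. lec-1 lies on chromosome II from 13195549 to 13199713, plus strand, and lec-5 on chromosome II from 5839639 to 5841103, minus strand. lec-3 (chromosome II, 9991112 to 10000351, plus strand) and lec-2 (chromosome II, 10009608 to 10016183, minus strand) are neighbours on opposite strands, 9256 bases apart. lec-4 occupies positions 3771425 to 3773326 of chromosome III and lec-6 positions 599510 to 600366 of the same chromosome, both on the minus strand. lec-8 (9850571 to 9851336) and lec-9 (17600487 to 17601503) are on the plus strand of chromosome X. lec-10 (chromosome V, 6488203 to 6489120) and lec-11 (chromosome IV, 6588184 to 6590154) are on the minus strand. The longest coding transcripts of the tandem-repeat type ran from 283 codons (lec-4) to 1245 codons (lec-2, which has 4 annotated transcripts), and those of lec-6, lec-8, lec-9, lec-10 and lec-11 ran from 140 codons (lec-9) to 232 codons (lec-11). lec-3 has 9 annotated transcripts and shares 17 exonic bases with nlt-1, and lec-11 shares 3 with dnj-11, both on the opposite strand. Whether the counting used strand is not given in the sources used here, but the shared stretches are short.

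The first comparison asked what GSC loss did to galectin mRNA. Relative to the library total, 10 of 10 galectins were higher in glp-1(ts) worms on vector, by 2.28-fold for lec-1 up to 5.67-fold for lec-3 (limma, with p adjusted by Benjamini-Hochberg across the whole matrix, from 2.76e-08 to 5.41e-05), although the sign of lec-1 turned on scaling to somatic genes and those of lec-1, lec-2, lec-6 and lec-8 on scaling to intestinal genes, as given below. Of all 12595 genes, 39.4% were called higher and 77.4% were called in either direction. The median galectin changed by 2.06 on the log2 scale and the median gene by 0.27. 5 galectins were over 4-fold higher, against 10.4% of all genes, and for lec-3 and lec-4 the whole 95% interval lay above 4-fold.

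The tandem-repeat galectins held both ends of the range. lec-1, the major tandem-repeat galectin of the worm, whose loss makes worms sensitive to oxidants, had 7.65, 7.45 and 7.54 log2 CPM in the 3 WT vector libraries and 8.71, 8.74 and 8.75 log2 CPM in glp-1(ts). The glp-1(ts) libraries differed by less than any other galectin's did, and the groups were more than 1 log2 unit apart. Its difference was 1.19 (95% interval 0.96 to 1.41). lec-3, another tandem-repeat galectin, had 3.20, 3.05 and 3.38 log2 CPM in WT and 5.66, 5.72 and 5.76 log2 CPM in glp-1(ts). Every glp-1(ts) library lay above every WT library. Its difference was 2.50 (95% interval 2.22 to 2.78). lec-4 rose from 4.44, 4.19 and 4.52 log2 CPM to 6.94, 6.64 and 6.72 log2 CPM, a difference of 2.38 (2.01 to 2.76). lec-5 rose from 5.73, 5.28 and 5.75 log2 CPM to 8.06, 7.91 and 7.74 log2 CPM, a difference of 2.32 (1.97 to 2.67). The groups of lec-4 and lec-5 were apart as well. lec-2, which sits beside lec-3, ranged from 6.34 to 6.78 log2 CPM in WT and from 8.18 to 8.37 log2 CPM in glp-1(ts), a difference of 1.69 (1.35 to 2.03), between those of lec-1 and lec-5.

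**Figure D1:**
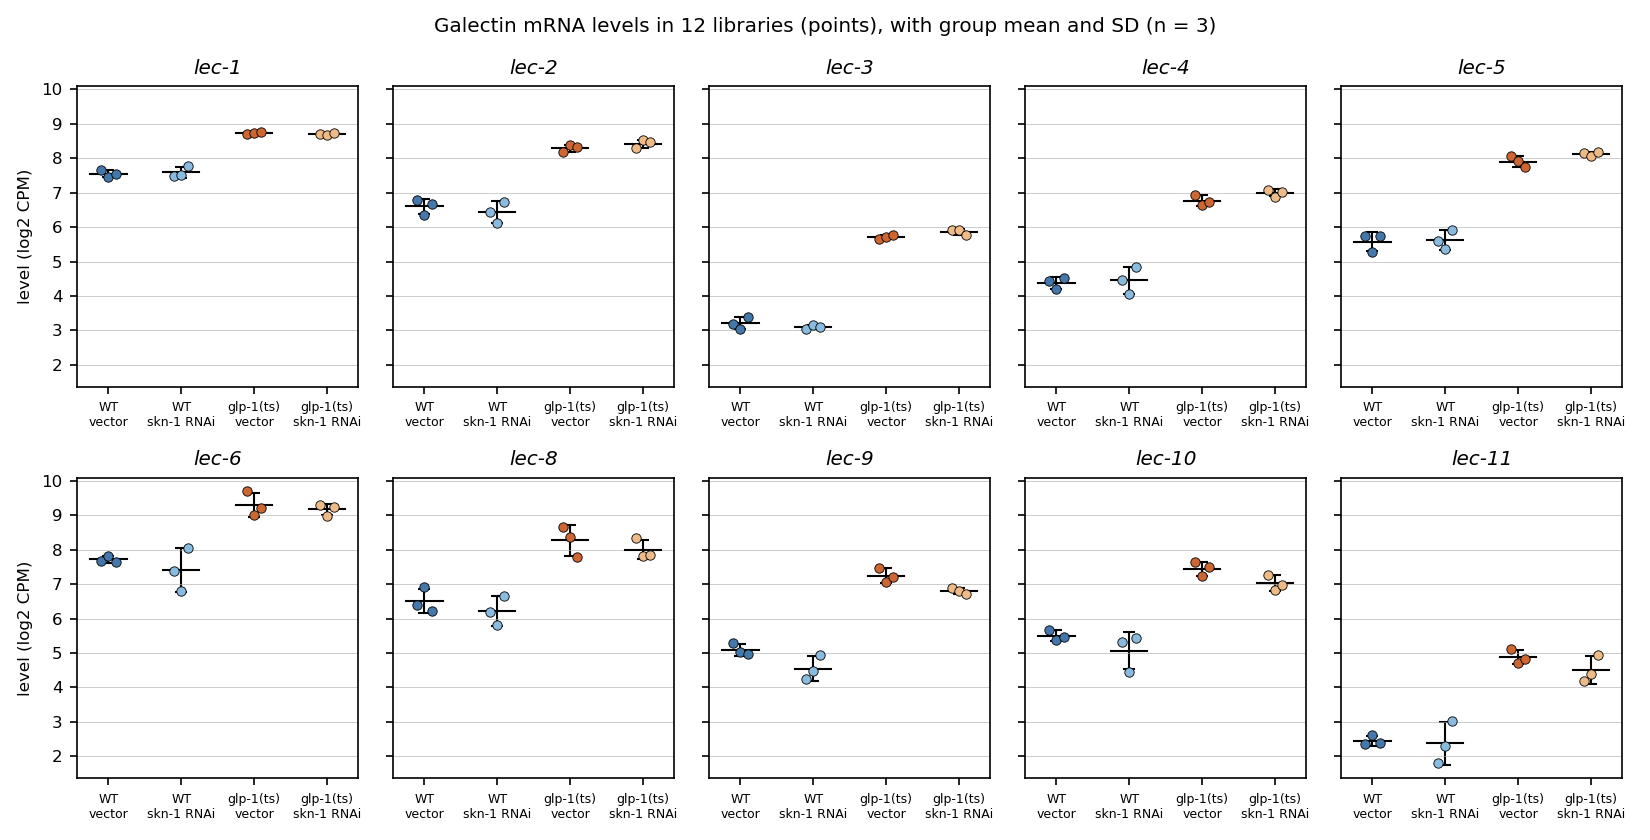
Level of each galectin in log2 CPM (vertical axis) in the 4 groups, with 1 point per library and the mean and SD of 3 libraries. All 10 galectins had non-overlapping WT and glp-1(ts) values on vector on this scale. Vector and skn-1 RNAi values of a strain overlapped except for lec-9 in both strains and lec-3 in glp-1(ts). The sign of the strain difference for lec-1 turns when values are taken relative to somatic genes. Those of lec-1, lec-2, lec-6 and lec-8 turn relative to intestinal genes on both foods, and that of lec-10 on skn-1 RNAi food.

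Among the single-domain galectins, lec-6 binds galactose-fucose units on the cores of N-glycans. Its levels were 7.67, 7.83 and 7.65 log2 CPM in WT and 9.70, 9.01 and 9.22 log2 CPM in glp-1(ts). Replicate 1 of glp-1(ts) stood above the others, and the difference of 1.59 (1.05 to 2.13) fell to 1.40 without it. lec-8, a glycolipid-binding galectin linked to toxin resistance, had 6.39, 6.91 and 6.22 log2 CPM in WT and 8.65, 8.37 and 7.78 log2 CPM in glp-1(ts). Its glp-1(ts) libraries were the most scattered of the family, and replicate 3 was the lowest. That library carried the most germline mRNA of its group and was the lowest for 2 of the 10 galectins. A link between these was not tested. The difference of lec-8 was 1.76 (1.21 to 2.31), and 2.00 without replicate 3 of glp-1(ts). lec-9 had 5.28, 5.02 and 4.96 log2 CPM in WT and 7.48, 7.07 and 7.20 log2 CPM in glp-1(ts), a difference of 2.17 (1.80 to 2.53). lec-10, a galectin also linked to oxidant resistance, had 5.68, 5.37 and 5.46 log2 CPM in WT and 7.63, 7.23 and 7.50 log2 CPM in glp-1(ts), a difference of 1.95 (1.48 to 2.42). The replicates of both genes were close to each other in both strains. lec-11 had 2.35, 2.62 and 2.38 log2 CPM in WT and 5.11, 4.72 and 4.83 log2 CPM in glp-1(ts), a difference of 2.44 with the widest interval of the 10 (1.84 to 3.03). The single-domain genes thus ranged from 1.59 to 2.44 and the tandem-repeat genes from 1.19 to 2.50, and the ranges of these types overlap.

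Non-overlapping groups were common in this comparison, since 81.1% of all genes had them. Summed over the family in CPM, the 3 WT vector libraries held 778, 749 and 732 CPM and the glp-1(ts) vector libraries 2796, 2310 and 2296 CPM, which is 753 ± 23.3 against 2467 ± 285 CPM (SD, n = 3), or 3.28-fold. The lec-named genes outside the list were also higher relative to the library total. lec-12 went from a mean of 4.06 to 5.55 log2 CPM (difference 1.49, adjusted p = 2.03e-06) and lec-7, below 1 CPM in WT, from -0.97 to 0.34 log2 CPM (difference 1.31, adjusted p = 0.0191). Both differences were below the median of 1.63 of the 28 somatic genes described below. On skn-1 RNAi food lec-12 was at 1.29 (adjusted p = 6.41e-06 by limma). There lec-7 was at 1.07 with overlapping groups (adjusted p = 0.0472 by limma).

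The strain comparison on skn-1 RNAi food used other libraries, and 10 of 10 galectins were again called higher relative to the library total (41.7% of all genes were called higher), with lec-1 changing sign on scaling to somatic genes and lec-1, lec-2, lec-6, lec-8 and lec-10 on scaling to intestinal genes. The differences were 1.11 for lec-1, 1.77 for lec-6, 1.78 for lec-8, 1.96 for lec-10, 1.99 for lec-2, 2.13 for lec-11, 2.25 for lec-9, 2.50 for lec-5, 2.55 for lec-4 and 2.77 for lec-3, with adjusted p from 5.36e-09 to 2.12e-05. lec-1 was the least changed and lec-3 the most changed on either food. The median was 2.06 for the galectins and 0.32 for all genes. On this food the intervals of lec-3, lec-4 and lec-5 lay wholly above 4-fold. Their changes exceeded those of 97.1%, 95.1% and 94.5% of all genes. The share of all genes with such intervals is not given here for either food.

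A germline makes up much of a WT adult, and an unchanged amount of somatic mRNA would take a larger share of the library without it. The galectins were therefore set beside 28 marker genes of intestine, muscle, neurons and hypodermis, which were named for their tissues and not for their change. Of these 24 were called higher and 4 lower in glp-1(ts) on vector, with a median difference of 1.63. No marker had a group mean below 1 CPM in glp-1(ts), but 1 marker of the hypodermis list did in WT on each food. The 4 that fell were the muscle transcription factor hlh-1 and, in the hypodermis list, the collagen dpy-7 and the transcription factors nhr-25 and lin-26. The mean of the 28 genes ranged from 4.09 to 4.45 log2 CPM in WT and from 5.38 to 5.68 log2 CPM in glp-1(ts). In the intestine list 8 of 8 genes were called higher, with a median of 1.75 and a list mean that ranged from 4.31 to 4.75 log2 CPM in WT and from 6.17 to 6.31 log2 CPM in glp-1(ts). The pharynx list, of which 2 of 3 genes were measured and which is not among the 28, was also called higher, with myo-2 (a pharyngeal myosin) at 2.45 and tnt-4 (a troponin) at 2.39 on vector and at 2.98 and 2.38 on skn-1 RNAi food. On vector they lie between the changes of lec-4 (2.38) and lec-3 (2.50). Among the 28 markers ges-1 (2.64, intestine) and rol-6 (2.96, hypodermis) rose more than lec-3 on vector. The galectins that changed most were thus not beyond every somatic marker.

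When each library was centred on the 28 somatic genes, 7 of 10 galectins kept a call on either food, against 12.5% of all genes called higher on vector and 12.8% on skn-1 RNAi food under the same centring. This centring moved the median of all genes by -1.23 on vector and by -1.39 on skn-1 RNAi food. It used the mean of the 28 genes, including the 4 that fell. The shift was therefore smaller than their median rise of 1.63 on vector and 1.90 on skn-1 RNAi food. Before centring lec-2, at 1.69 on vector, was close to that median. Centring on the median of the 28 genes was not tried. On vector the remaining differences were 1.27 for lec-3, 1.21 for lec-11, 1.15 for lec-4, 1.09 for lec-5, 0.93 for lec-9, 0.72 for lec-10 and 0.46 for lec-2, each past the threshold. lec-8 at 0.53 (adjusted p = 0.085), lec-6 at 0.36 (adjusted p = 0.213) and lec-1 at -0.04 (adjusted p = 0.816) no longer passed. A stricter yardstick was the intestine list alone, chosen after seeing the data, which moved the median of all genes by -1.78 and -2.08. Relative to it, lec-3 (0.72, adjusted p = 0.0144), lec-4 (0.60, adjusted p = 0.0132) and lec-5 (0.54, adjusted p = 0.0241) were still higher on vector, and lec-1 was lower (-0.60, adjusted p = 0.0179). The other 6 did not pass, and 2.33% of all genes were called higher. On skn-1 RNAi food lec-3 (0.69, adjusted p = 0.0182) and lec-4 (0.47, adjusted p = 0.0478) were higher, lec-5 stood at 0.42 (adjusted p = 0.0736) and lec-1 was lower (-0.97, adjusted p = 0.000352), with 1.86% of all genes called higher. Of all calls relative to the intestine list, 3.65% were higher on vector and 2.76% on skn-1 RNAi food. The median of all genes was then -1.52 and -1.76, below the value of lec-1 on either food. The part of tissue makeup in the family's rise was not tested beyond these scalings.

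**Figure D2:**
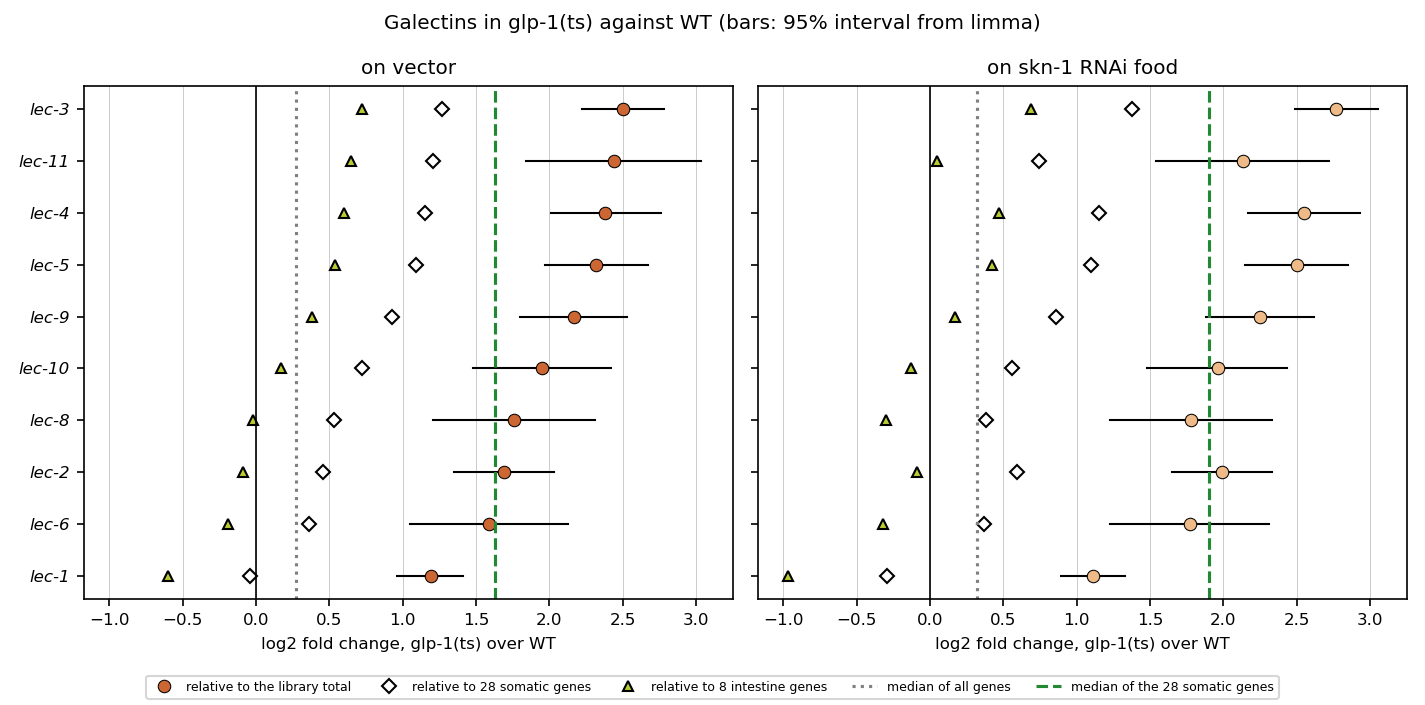
Log2 fold change of each galectin in glp-1(ts) over WT (horizontal axis) on vector (left) and on skn-1 RNAi food (right). Circles are values relative to the library total with 95% intervals, diamonds are relative to 28 somatic genes, triangles are relative to 8 intestine genes, and vertical lines mark the medians of all genes and of the somatic genes. The changes of lec-1 and lec-6 lie below the somatic median on both foods, and that of lec-8 on skn-1 RNAi food. Diamonds and triangles use the means of their lists, not the median drawn. The change of lec-1 turns negative under both rescalings. Those of lec-2, lec-6 and lec-8 turn negative relative to intestine on both foods and that of lec-10 on skn-1 RNAi food. The values of lec-3, lec-4, lec-5, lec-9 and lec-11 stay above 0 in each version drawn.

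Ratios between family members do not depend on a single factor by which a library is scaled. The deposited values were also quantile normalised, which gives each library the same distribution and can alter ratios. That part was not tested. For each of the 45 pairs the log2 ratio of the galectins was compared between strains over both foods with a two-sided exact permutation of strain within food (400 arrangements, smallest possible p 0.005, adjusted over the 45 pairs). This test was chosen after seeing the data, and 24 pairs passed. It moves the libraries of each food separately. When the same-numbered libraries of a strain were kept together, 20 arrangements remained with a smallest possible p of 0.1, so no pair could pass. Of the 45 pairs 27 were at that smallest p, the 24 among them, so it does not single those out. By the first test lec-1 rose less than each of the other 9 genes. The log2 ratio of lec-1 to lec-3 went from 4.42 in WT to 2.93 in glp-1(ts), a change of -1.49 (exact p = 0.005, adjusted p = 0.0161), and that of lec-1 to lec-6 from 0.01 to -0.52 (exact p = 0.015, adjusted p = 0.0338). lec-3 rose more than 6 of the others, and lec-4 and lec-5 more than 5 each, whereas no difference passed among lec-3, lec-4, lec-5 and lec-11. lec-6 rose less than 5 genes. The neighbours lec-2 and lec-3 differed, with the ratio of lec-2 to lec-3 falling by 0.80 (exact p = 0.005, adjusted p = 0.0161). By the first test only, these values show unequal change within the family. They do not show that any member held still.

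**Figure D3:**
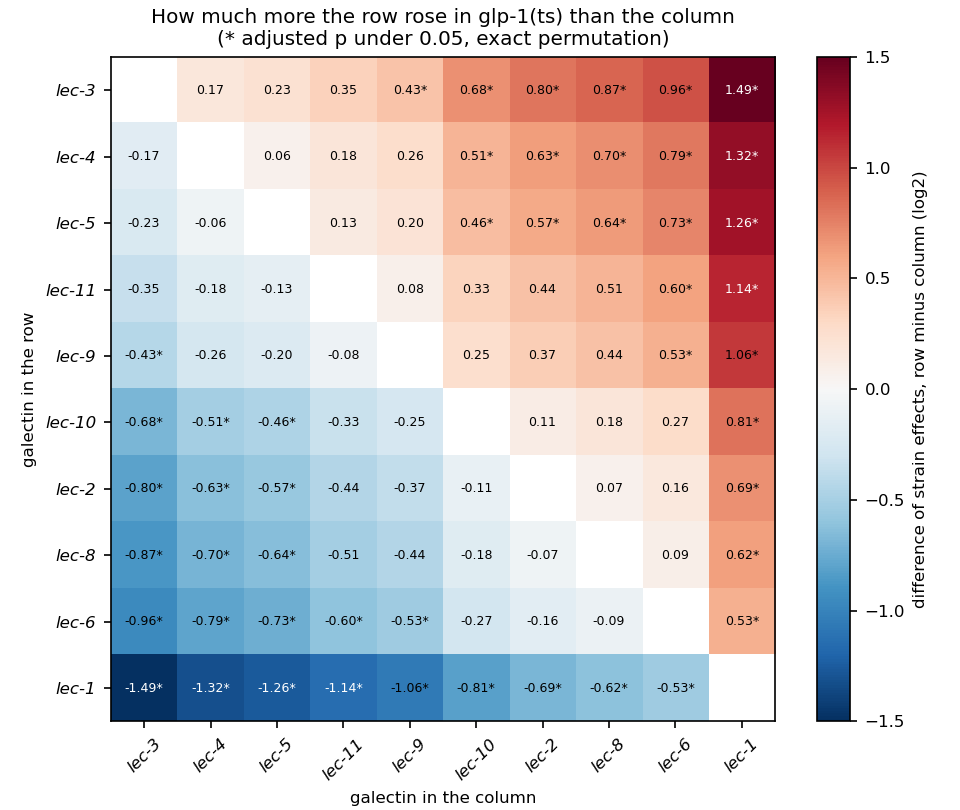
Difference between the strain effects of 2 galectins, row minus column, in log2 units over both foods, with red where the row rose more and blue where it rose less. Asterisks mark the 24 of 45 pairs that passed the exact permutation test within foods, none of which could pass with replicate pairs kept together, and the row of lec-1 has 9 of 9.

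Levels were compared between galectins per kilobase of annotated exon, a scale that understates genes whose longest isoforms are rarely made (lec-2 and lec-3 carry the most annotated exon). On it lec-6 was the most abundant in all 4 groups, at 8.61 ± 0.10 log2 CPM per kilobase in WT on vector and 10.20 ± 0.35 in glp-1(ts) (SD, n = 3), where it made up 43.7% and 40.0% of the family's summed level per kilobase. In WT on vector lec-1 (7.16) and lec-8 (7.12) followed with overlapping libraries, then lec-9 (5.98), lec-10 (5.82) and lec-5 (5.56), each overlapping its neighbour, then lec-2 (4.47) and lec-4 (4.36), also overlapping, and last lec-11 (2.00) and lec-3 (1.80), again overlapping. In glp-1(ts) on vector the order after lec-6 was lec-8 (8.88), lec-1 (8.34), lec-9 (8.14), lec-5 (7.88), lec-10 (7.77), lec-4 (6.75), lec-2 (6.16), lec-11 (4.43) and lec-3 (4.30). There lec-1, lec-9, lec-5 and lec-10 overlapped from neighbour to neighbour, and so did lec-11 and lec-3. lec-1 went from 16.0% ± 1.51 to 11.1% ± 1.84 of the family's level per kilobase, lec-5 from 5.37% ± 1.13 to 8.02% ± 0.752 and lec-8 from 15.8% ± 3.44 to 16.3% ± 3.37 (SD, n = 3). lec-3, with the largest fold change of the 10 in both comparisons of strains, was lowest per kilobase on vector, overlapping with lec-11.

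**Figure D4:**
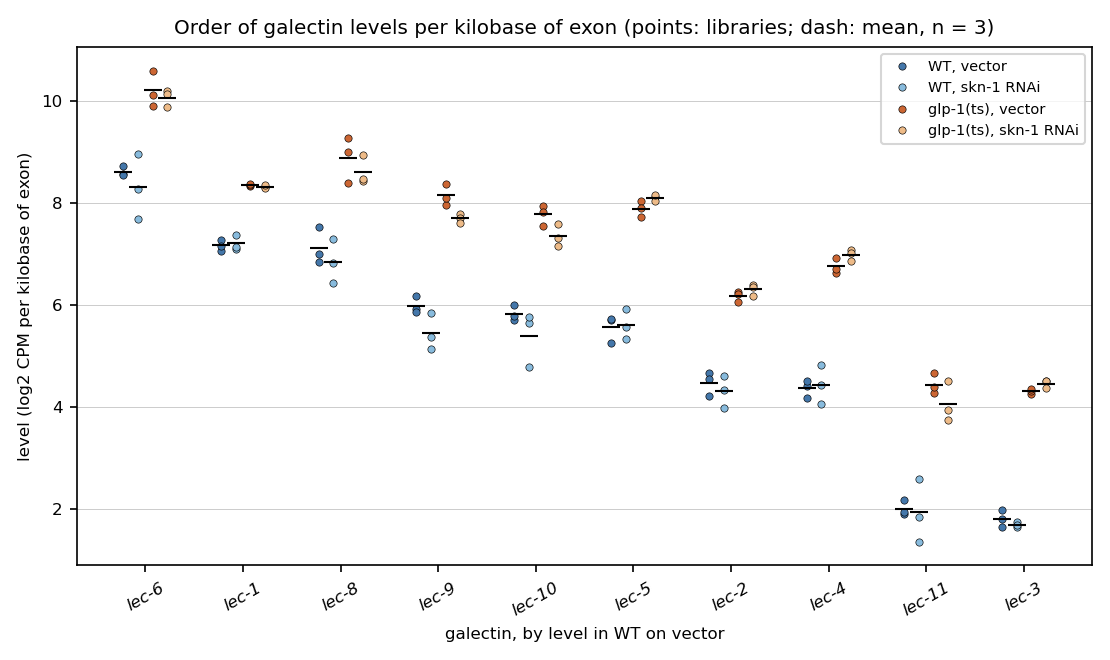
Level of each galectin per kilobase of annotated exon (vertical axis, log2 CPM per kilobase), ordered by the level in WT on vector, with 1 point per library and a dash at the mean of 3. lec-6 is on top in every group and lec-3 and lec-11 at the bottom.

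The sugars that galectins bind are built by glycosyltransferases, and 22 genes for N-glycan and glycolipid synthesis were followed, of which 21 were measured. On vector 11 were called higher in glp-1(ts), 4 lower and 6 neither, beside 39.4% of all genes called higher and 77.4% in either direction. The list was therefore not called more often than other genes taken both ways. Its median was 0.65 relative to the library total and -0.58 relative to the 28 somatic genes, so the direction of this list depends on the scale. The median of all genes was 0.27 and -0.96 on these scales. The 14 N-glycan genes had a median of 1.38, with 9 higher and 2 lower. The largest rises were those of hex-2 (2.04), which trims terminal N-acetylglucosamine from N-glycans, fut-8 (2.01), which adds the core fucose, and galt-1 (1.98, adjusted p = 0.00735), which adds galactose to that fucose and so makes the unit that lec-6 binds. galt-1 was near the detection limit at means of -1.89 log2 CPM in WT and 0.08 log2 CPM in glp-1(ts), and on skn-1 RNAi food its difference of 1.22 did not pass (adjusted p = 0.07). Relative to somatic genes hex-2 (0.81, adjusted p = 0.00197) and fut-8 (0.78, adjusted p = 0.0107) were the 2 genes still called higher on vector. On that scale 10 of the 21 were called lower. Of all genes 12.5% were then called higher, and 18.9% of all calls were higher. gly-14, an N-acetylglucosaminyltransferase that starts complex N-glycans, fell by 4.43, and gly-20, which acts on the next branch, fell by 1.34. gly-14 went from a mean of 1.11 log2 CPM in WT to -3.32 log2 CPM in glp-1(ts), near the detection limit, so the size of its fall is uncertain. Of the other listed gly- genes gly-2 (1.40) and gly-13 (0.65) were called higher and gly-12 (0.32) was not called.

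Of 7 glycolipid genes 2 were higher and 2 lower on vector, again beside 39.4% of all genes higher and 77.4% called either way. cgt-1, a ceramide glucosyltransferase, rose by 1.87, a change of 0.64 that no longer passed relative to somatic genes (adjusted p = 0.076). bre-5 fell by 1.83 and bre-4 by 0.57, both glycosyltransferases that extend the arthropod-type glycolipids bound by some worm galectins and by the crystal toxins, and both fell further relative to somatic genes (-3.06 and -1.80). On skn-1 RNAi food 10 of the 21 genes were higher, near the 41.7% of all genes, and 4 were lower, led by hex-2 (2.17), fut-1 (1.93), fut-8 (1.76) and bre-1 (1.71) upward and by gly-14, which fell by 3.57, bre-5, which fell by 1.78, gly-20, which fell by 1.44, and bre-4, which fell by 0.76. gly-14 was again near the detection limit in glp-1(ts), at a mean of -2.67 log2 CPM. fut-1 adds a core fucose in another linkage and bre-1 makes the fucose donor. Relative to somatic genes 1 of the 21 was higher and 10 were lower. Under that centring 12.8% of all genes were called higher, and 19% of all calls were higher. The median was then -0.66 for the list and -1.07 for all genes.

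The second comparison asked whether skn-1 RNAi changed galectin mRNA. No galectin was called in either strain. In WT the differences ran from -0.53 to 0.07, with a median of -0.14, and 22 of all genes (0.175%) were called. With replicates blocked within the strain the number called among all genes was 93, and the galectin count stayed at 0. In glp-1(ts), on the libraries labelled skn-1 RNAi, the differences ran from -0.45 to 0.23, with a median of -0.08, while 45 genes (0.357%) were called, or 198 with the block. The 95% intervals bound what could have been missed. For lec-1 they were -0.18 to 0.27 in WT, and for lec-6 -0.85 to 0.23. Over the family the limits in WT reached from -0.90 (lec-9 and lec-10) to 0.52 (lec-11). In glp-1(ts) they reached from -0.97 (lec-11) to 0.61 (lec-4).

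lec-9 and lec-10 had the most negative differences in both strains. lec-9 had 5.28, 5.02 and 4.96 log2 CPM on vector and 4.24, 4.47 and 4.94 log2 CPM on skn-1 RNAi in WT, and 7.48, 7.07 and 7.20 against 6.89, 6.80 and 6.72 log2 CPM in glp-1(ts). The food groups did not overlap in either strain, which was so for 10.8% of all genes in WT and for 14.6% in glp-1(ts), but in WT the third replicates differed by only 0.02. The difference was -0.53 in WT (unadjusted p = 0.00807, adjusted p = 0.48 by limma) and -0.45 in glp-1(ts) (unadjusted p = 0.0213, adjusted p = 0.371). lec-9 was the 1 galectin with an unadjusted p under 0.05 in each strain, as were 5.95% and 10.5% of all genes. lec-10 had 5.68, 5.37 and 5.46 against 5.32, 4.46 and 5.45 log2 CPM in WT, and 7.63, 7.23 and 7.50 against 7.28, 6.83 and 6.98 log2 CPM in glp-1(ts). In WT the food groups of lec-10 overlapped and replicate 2 on skn-1 RNAi lay apart from the rest. Its differences were -0.43 and -0.42 (adjusted p = 0.942 and 0.527 by limma), and -0.12 in WT without that replicate.

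Averaged over the strains, a contrast added after seeing the data, lec-9 was at -0.49 (95% interval -0.75 to -0.23, unadjusted p = 0.00131, adjusted p = 0.114 by limma) and lec-10 at -0.43 (-0.76 to -0.09, adjusted p = 0.393), with 0.683% of all genes called. These were the 2 galectins with an unadjusted p under 0.05, as were 8.60% of all genes. The value of lec-10 was -0.27 without WT replicate 2 on skn-1 RNAi. Both genes were lower on skn-1 RNAi in 3 of 3 same-numbered pairs in each strain, as were 3.68% of all genes, although the third WT pair differed by only -0.02 for lec-9 and -0.01 for lec-10. With all libraries the adjusted p of lec-9 ranged from 0.0593, with replicates blocked within a strain, to 0.76, relative to intestinal genes, and it passed (-0.59, adjusted p = 0.0177) when WT replicate 3 on skn-1 RNAi was left out. That WT group was uneven for the whole family. Replicate 3 was the highest for 9 of 10 galectins and replicate 2 the lowest for 6, and the family sum was 649, 535 and 873 CPM in replicates 1 to 3. lec-6 spanned 7.38, 6.79 and 8.06 log2 CPM there. The intestine list moved with it, at 3.78 log2 CPM in replicate 2 and 4.24 ± 0.42 log2 CPM over the group (SD, n = 3), and its part in the galectin values was not tested.

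None of the tandem-repeat genes was called. In glp-1(ts) lec-2, lec-3, lec-4 and lec-5 were at 0.13, 0.15, 0.23 and 0.22, higher in 3 of 3 pairs each (19.6% of all genes were) but not called, and in WT they were at -0.16, -0.11, 0.07 and 0.04. lec-1 was lower in 3 of 3 glp-1(ts) pairs (18.0% of all genes were), by -0.01, -0.07 and -0.01. The difference between the strains in the skn-1 RNAi effect ranged from -0.31 for lec-11 to 0.30 for lec-2, and for no galectin did it pass (adjusted p = 0.889 for lec-2 and 0.949 for lec-11 by limma) or have an unadjusted p under 0.05, against 5.92% of all genes. None of the 21 glycan synthesis genes was called in either strain by limma. At an unadjusted p under 0.05 there were 0 in WT and 2 in glp-1(ts), against 5.95% and 10.5% of all genes.

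**Figure D5:**
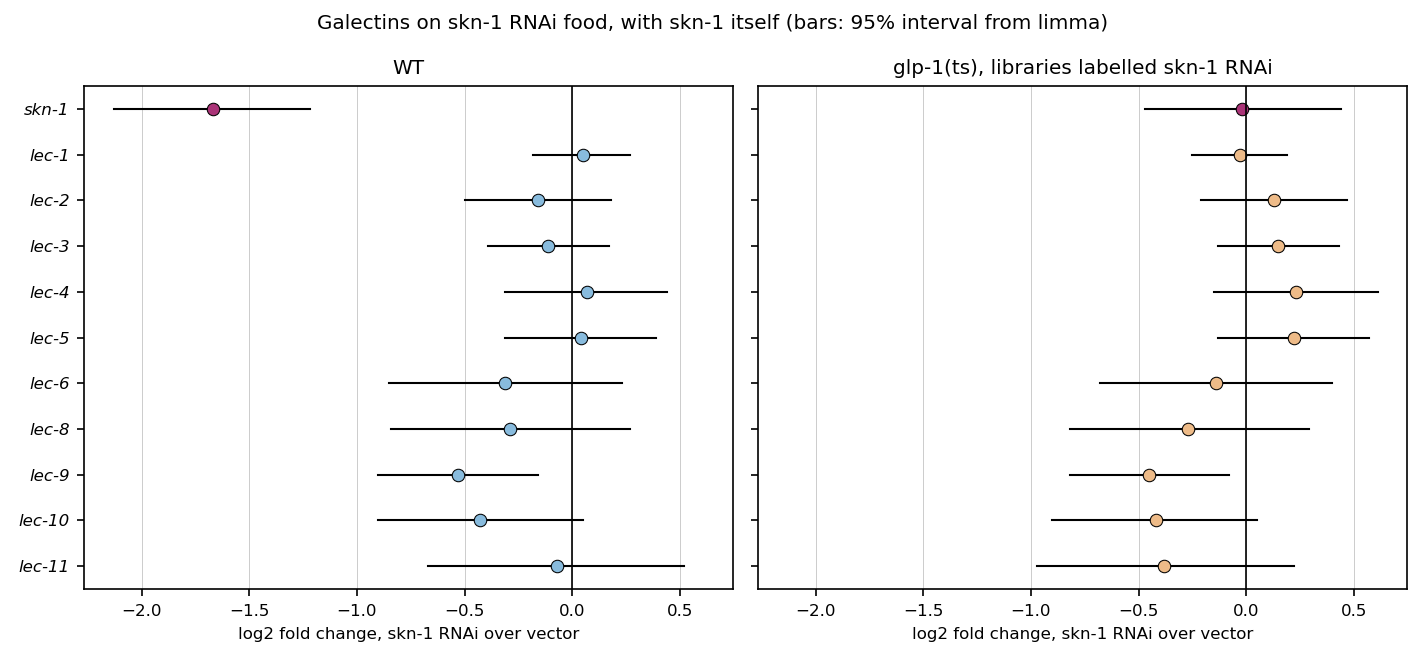
Log2 fold change on skn-1 RNAi over vector (horizontal axis) for each galectin and for skn-1 itself, with 95% intervals, in WT (left) and glp-1(ts) (right). skn-1 itself was at -1.67 in WT and at -0.02 in glp-1(ts), and the intervals of all galectins except lec-9 include 0.

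As a description of the pattern over the 12 libraries, the genes most like the mean of the standardised galectins were W10C8.5 and the small heat shock protein gene hsp-25 (Pearson r = 0.996 each), ZK1307.1, the convertase gene aex-5 and Y62H9A.6 (0.995 each). The libraries fall into the 2 strains, so any gene that separates them scores high, and 1826 of 12582 genes exceeded 0.95. The galectins themselves ranged from 0.962 for lec-8 to 0.99 for lec-1 and lec-4. Taken singly, lec-1 was most like C48E7.1 and did-2 (0.997 each) and lec-9 most like the lysozyme gene lys-8 (0.993) and phy-3 (0.989).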

How the data were processed

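RNA-seq values of 12 whole-worm libraries in 4 groups of 3 were used, with groups and replicate numbers from the sample labels. Reads were poly(A)-selected and single-ended. The authors used STAR for alignment to WBcel235 and featureCounts for counting, kept genes with 1 CPM or more in 2 or more samples, and applied voom with quantile normalisation. The deposited values are log2 CPM of 12595 genes, which sum to between 980316 and 980342 CPM in each library. They hold no read counts, so depth is unknown and precision rests on replicates alone. Quantile normalisation gives each library the same distribution, so changes are relative. The deposited table of the authors' comparisons (log2 fold changes, t scores and p-values) was not used.

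The model had 1 mean per group and took in the 12 libraries together (limma 3.58.1, R 4.3.3, eBayes with a mean-variance trend, no block, 8 residual degrees of freedom, 13.6 in total). A gene was called where its p, adjusted by Benjamini-Hochberg across the 12595 genes, was under 0.05. Pairs of galectins were compared by exact permutation, and p-values measure the spread between the libraries labelled as replicates. Marker and glycan lists were written from general knowledge. The galectins and lists were chosen with earlier results of these data known. Named genes are all listed galectins, up to 4 called glycan genes in each direction per comparison, the 5 genes most like the family and the 2 most like each of lec-1 and lec-9, which were singled out after their values were seen. Others (lec-7, lec-12, the 4 somatic markers that fell, the markers ges-1 and rol-6, and the glycan genes gly-2, gly-12 and gly-13) were also named after seeing values.

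Coordinates are from the Ensembl release 115 annotation of the same build, where 10 of 10 symbols matched. Deviations of same-numbered vector and skn-1 RNAi libraries from their group means had correlations over genes of 0.11, 0.31 and 0.25 (WT) and 0.15, 0.34 and 0.23 (glp-1(ts)), all above 0.1. Libraries of 1 strain with the same number were therefore kept together in the block within a strain and in the second permutation of galectin pairs. The main fit and the first permutation did not use this pairing, so their p-values do not take it into account. Between strains on vector same-numbered libraries correlated by 0.03, 0.16 and 0.12 and were not kept together in these. Another 10 settings with all libraries were tried, 12 that left out 1 library each, and 2 added after seeing the data (the block within a strain and centring on intestine genes).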

Additional observations from a re-analysis of the deposited data

How the results depend on the processing

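The strain comparisons held 10 called galectins without any 1 library (10 to 10 on both foods) and with the settings that do not rescale to tissue genes. Centred on the somatic lists 7 were called on either food, and lec-1 turned to -0.04 on vector and -0.29 on skn-1 RNAi food. Centred on the intestine list, a setting added after seeing the data, 4 were called on vector and 3 on skn-1 RNAi food, 1 of them (lec-1) lower. The values that changed sign on vector were -0.60 for lec-1, -0.09 for lec-2, -0.19 for lec-6 and -0.02 for lec-8, and on skn-1 RNAi food -0.97 for lec-1, -0.09 for lec-2, -0.32 for lec-6, -0.30 for lec-8 and -0.13 for lec-10. Over all genes the share of calls that were higher fell from 50.9% to 18.9% (somatic) and 3.65% (intestine) on vector, and from 52.3% to 19% and 2.76% on skn-1 RNAi food. For skn-1 RNAi it went from 45.5% to 55.6% and 80% in WT; the glp-1(ts) share went from 15.6% to 33.3% centred on the intestine list or on the reference genes.

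For skn-1 RNAi in WT the uncalled values that changed sign were -0.02 for lec-1, 0.00 for lec-4 and -0.03 for lec-5 centred on the reference genes, and 0.07 for lec-2, 0.12 for lec-3 and 0.16 for lec-11 centred on the intestine list, where the strain difference of lec-2 was 0.00. Leaving out 1 library each, the WT values ranged from -0.04 to 0.10 for lec-1, -0.13 to 0.26 for lec-4, -0.11 to 0.18 for lec-5, -0.63 to 0.00 for lec-6 and -0.40 to 0.21 for lec-11. In glp-1(ts) lec-6 ranged from -0.28 to 0.06, and the strain difference of lec-11 from -0.59 to 0.02. The count called over the averaged strains ranged from 0 to 1, the 1 being lec-9 without WT replicate 3 on skn-1 RNAi. The cause of these changes was not tested. With the replicate block, counts over all genes went from 22 to 59 in WT, 45 to 99 in glp-1(ts) and 86 to 179 over the averaged strains (93, 198 and 259 with the block within a strain), and no galectin call changed. The called glycan genes ranged from 11 to 18 on vector and from 10 to 16 on skn-1 RNAi food. Depth is unknown, so the low galectins lec-3 and lec-11 could not be given a counting error.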
